A study of Mus musculus with 6 samples.

Results

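The Schlafen genes of the mouse were followed through 6 bulk RNA sequencing libraries of cultured EGCs (enteric glial cells, which surround the neurons of the gut wall). The 7 members Slfn1, Slfn2, Slfn3, Slfn4, Slfn5, Slfn8 and Slfn9 were taken by their gene symbol from a count table of 46603 gene identifiers, and each symbol matched 1 row in every library. The cultures came from C57BL/6J mouse embryos at E14.5. Whole intestine was digested, grown as neurospheres (free-floating clusters of neural progenitors) and plated in serum-containing medium until confluent. A group of 3 cultures received lipopolysaccharide (LPS, an outer membrane component of Gram-negative bacteria) at 100 ng/ml for 12 h, and the 3 control cultures received none. The labels gave a replicate number in each group but not which embryos or preparations a number stood for, so the p-values measure the spread between these cultures. The libraries held between 18775316 and 23664312 counts.

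Schlafen proteins take their name from the German word for sleep, after the growth arrest caused by Slfn1 when it was expressed in T cells. In the mouse they form a short group (Slfn1 and Slfn2), an intermediate group (Slfn3 and Slfn4) and a long group (Slfn5, Slfn8, Slfn9 and Slfn14), and members of the long group carry a helicase-like domain at their carboxyl end. Many Schlafen genes are induced by type I interferon, the cytokine that macrophages and other cells release when LPS engages Toll-like receptor signalling, and several of the proteins bind or cleave transfer RNA. In myeloid cells and T cells the family is best known for its part in quiescence, differentiation and restriction of viruses.

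The labelled cell type was checked first. All 8 glial markers, among them Sox10, Ngfr and Erbb3, were above a floor of 3 counts (0.124 to 0.167 CPM) in every library, and their summed level ran from 626 to 846 CPM (counts divided by the corrected library size in units of 1e6) in controls and from 655 to 689 under LPS. By edgeR 1 glial marker was called lower (S100b, log2 fold change -1.91, adjusted p = 0.0238) and 1 higher (Fabp7, 1.29, adjusted p = 0.0122). All 5 mesenchymal markers were above the floor as well, with sums of 10477 to 12099 CPM in controls and 11218 to 11680 CPM under LPS, and Pdgfra and Dcn were called higher. The 5 smooth muscle markers summed to between 2119 and 2369 CPM in controls and between 592 and 849 CPM under LPS, and all 5 were called lower. Macrophage markers were also present: 11 of 12 were above the floor in every library and none was at it throughout. Their summed level was 4218, 5477 and 12940 CPM in control replicates 1, 2 and 3, and 4096, 5314 and 20357 CPM in LPS replicates 1, 2 and 3. Replicate 3 therefore stood apart from the other two of its own group in both conditions. Monocyte and neutrophil markers summed to between 52.5 and 68 CPM in controls and between 166 and 201 CPM under LPS. Of these 7 markers, 2 were above the floor in every library, and S100a9 and Ly6g were at or below it throughout. Plac8 (1.32) and S100a8 (4.87) were called higher and none was called lower. S100a8 was at the floor in control replicates 1 and 2 (0.127 and 0.133 CPM) and entered the test through its LPS libraries. Of the defining lymphocyte genes, 7 of 9 (among them Cd3d, Cd3e, Cd3g and Cd8a) were at or below the floor in all 6 libraries. In such bulk cultures, fewer cells of a type and less RNA per cell cannot be told apart. The part of these other cell types in the Schlafen results was not tested.

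The members sit side by side in chr11:82951349-83286726 of GRCm38, a stretch of 335.4 kb that holds 9 Schlafen genes and no other protein-coding gene in GENCODE M21. Of the 7 members 6 were called higher under LPS and Slfn3 was not, beside 9.09% of all genes called higher. To show what lies at the starts of these neighbouring genes, the 160 bases upstream of 1 RefSeq start of each member (GRCm38.p6) are printed. They run 5′ to 3′ in the order of the cluster. Capitals mark the interferon-stimulated response element core (ISRE core, which is GAAA, any 2 bases and GAAA again, on either strand) or the word ACTTCCTGG.
Slfn5, chr11:82951942-82952101, plus strand: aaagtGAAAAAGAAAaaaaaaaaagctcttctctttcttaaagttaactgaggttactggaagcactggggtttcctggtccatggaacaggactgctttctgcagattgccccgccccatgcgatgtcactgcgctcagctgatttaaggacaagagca
Slfn9, chr11:82991831-82991990, minus strand: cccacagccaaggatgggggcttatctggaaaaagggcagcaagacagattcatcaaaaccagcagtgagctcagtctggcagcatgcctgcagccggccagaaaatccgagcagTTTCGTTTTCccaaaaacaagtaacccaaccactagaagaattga
Slfn8, chr11:83020811-83020970, minus strand: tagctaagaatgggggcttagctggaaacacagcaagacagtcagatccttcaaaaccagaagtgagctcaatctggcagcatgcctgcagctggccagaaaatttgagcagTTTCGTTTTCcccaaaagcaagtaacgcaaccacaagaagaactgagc
Slfn2, chr11:83064952-83065111, plus strand: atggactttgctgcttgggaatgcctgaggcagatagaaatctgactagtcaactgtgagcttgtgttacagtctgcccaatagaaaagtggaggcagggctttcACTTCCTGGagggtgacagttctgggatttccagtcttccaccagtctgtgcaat
Slfn1, chr11:83116660-83116819, plus strand: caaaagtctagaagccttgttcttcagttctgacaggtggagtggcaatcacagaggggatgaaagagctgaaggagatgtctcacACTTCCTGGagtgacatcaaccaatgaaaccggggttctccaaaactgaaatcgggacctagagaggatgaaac
Slfn4, chr11:83175026-83175185, plus strand: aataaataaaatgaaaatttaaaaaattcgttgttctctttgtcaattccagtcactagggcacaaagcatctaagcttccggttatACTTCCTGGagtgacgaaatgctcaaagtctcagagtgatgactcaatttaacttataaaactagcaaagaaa
Slfn3, chr11:83191170-83191329, plus strand: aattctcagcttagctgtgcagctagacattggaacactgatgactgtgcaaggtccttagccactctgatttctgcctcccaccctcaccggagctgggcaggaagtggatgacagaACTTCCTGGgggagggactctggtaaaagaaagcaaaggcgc
The ISRE core was found in the windows of the 3 long members and in none of the short or intermediate members. In Slfn9 and Slfn8 it had the same letters, TTTCGTTTTC, with its first base 45 and 48 bases before the start. A second RefSeq start of Slfn8 lay further downstream, with the same core 136 bases before it. In Slfn5 it was GAAAAAGAAA at 155 bases, inside a run of A, and the RefSeq start of Slfn5 lies downstream of the gene boundary in GENCODE. Over all 32851 RefSeq windows of 300 bases (both strands searched), 3.44% held an ISRE core. The 4 short and intermediate members instead shared ACTTCCTGG, at 55 bases in Slfn2, 74 in Slfn1, 73 in Slfn4 and 42 in Slfn3. This word was chosen after the sequences were seen, and 0.843% of all windows held it. The NF-kB motif was matched in Slfn9 (GGGAACCCCC, 214 bases before the start) and in Slfn1 (GGGGTTCTCC, 43 bases), beside 8.46% of all windows, and the interferon-gamma activated core TTCNNNGAA was matched in none of the 7, beside 8.3%. These matches describe letters and not bound sites.

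Every LPS-treated culture held more Schlafen RNA than every control. The summed level of the 7 members was 67.5, 81.7 and 132 CPM in control replicates 1, 2 and 3 and 406, 449 and 1149 CPM in LPS replicates 1, 2 and 3. By the edgeR quasi-likelihood F-test with Benjamini-Hochberg adjustment over 15226 genes, 6 of the 7 members were higher under LPS at an adjusted p under 0.05 and Slfn3 was not called. Of all genes tested, 9.09% were called higher. In the same 6 members every LPS library exceeded every control library, as did 19.3% of all genes tested. No member was called lower by edgeR's quasi-likelihood or exact test, DESeq2 (which gave an adjusted p for 5 members) or limma-voom. The quasi-likelihood test called 6.71% of all genes lower. No member had an unadjusted p under 0.05 in that direction. The median log2 fold change of the members was 2.93, beside -0.02 over all genes tested. Slfn1 and Slfn4 entered the test through their LPS libraries alone, since they were near the floor in controls. With at least 10 counts asked of every library, 5 members remained and 4 of them were called higher, beside 8.71% of all genes.

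**Figure D1:**
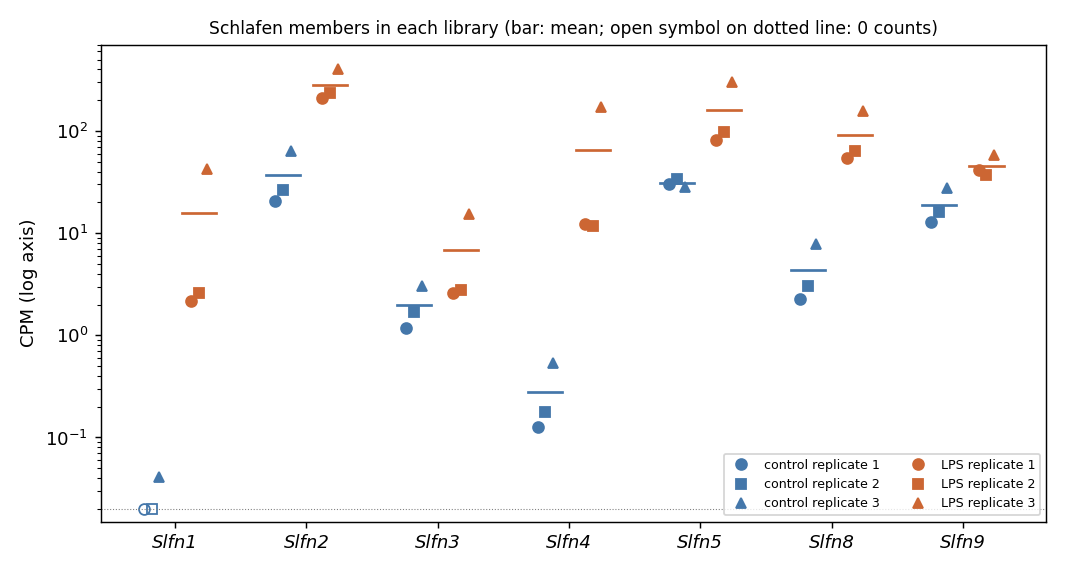
Level of each Schlafen member in each library, in CPM on a log axis. Blue symbols are the 3 control libraries, orange symbols the 3 LPS libraries, the symbol shape gives the replicate number and bars are group means (the Slfn1 control mean lies below the axis range shown). The groups overlap in Slfn3 alone, and LPS replicate 3 is the highest library for all 7 genes.

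The short members were the highest and the lowest of the 7 members per kilobase of exon in controls. Slfn2 (ENSMUSG00000072620, chr11:83065112-83070678, plus strand, 378 codons) is needed for the quiescence of T cells and monocytes and protects transfer RNA from cleavage in stressed T cells. Its level was 20.8, 26.5 and 64.3 CPM in controls and 211, 233 and 405 CPM under LPS. The highest control thus stayed well below the lowest LPS culture. The group means were 37.2 ± 23.7 and 283 ± 106 CPM (SD, n = 3 each). edgeR estimated the difference at 2.93 on the log2 scale (SE 0.52, adjusted p = 0.0194), or 7.61-fold. Matched by replicate number, the LPS to control ratio was 10.1, 8.81 and 6.3.

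Slfn1 (ENSMUSG00000078763, chr11:83116849-83122670, plus strand, 337 codons), the founding member known for arresting T cells before S phase, was all but absent without LPS. The control libraries held 0, 0 and 1 counts of it and the LPS libraries 44, 47 and 817 counts. On the CPM scale the LPS cultures were at 2.17, 2.62 and 42.8, so replicate 3 alone carried most of the signal, and the LPS mean of 15.8 ± 23.3 CPM (SD, n = 3) was smaller than its SD. All 3 LPS libraries were above all 3 controls. The edgeR log2 fold change was 9.63 (SE 2.15, adjusted p = 0.0355), a value that depends on the prior count because controls were at or below the floor. The ratio of the summed counts, 908 to 1 after correction for library size, was 1116 with an exact 95% interval of 200 to 44113 that covers counting error only. By limma-voom Slfn1 was not called (adjusted p = 0.0976), within a range of 5.76e-05 to 0.142 over the alternatives that gave a p.

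The intermediate members are neighbours in the cluster and their coding sequences were 91.8% identical over the aligned bases. Slfn4 (ENSMUSG00000000204, chr11:83175186-83190216, plus strand, 602 codons) is a myeloid gene induced by Toll-like receptor ligands and normally turned down as monocytes mature. It had 3, 4 and 13 counts in controls (0.127, 0.177 and 0.537 CPM) and 251, 213 and 3283 counts under LPS (12.4, 11.9 and 172 CPM). The LPS cultures 1 and 2 already exceeded every control, and LPS replicate 3 was 14.2 times the mean of the other two. The log2 fold change was 7.82 (SE 1.62, edgeR adjusted p = 0.0293), and the ratio of summed counts was 230 (exact 95% counting interval 149 to 377). Limma-voom gave an adjusted p of 0.211, in a range over the alternatives from 8.56e-06 to that value.

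Slfn3 (ENSMUSG00000018986, chr11:83191330-83215154, plus strand, 640 codons), studied in T cells and in the differentiation of intestinal epithelium, was the exception. Its level was 1.19, 1.68 and 3.06 CPM in controls and 2.62, 2.79 and 15.3 CPM under LPS. Control replicate 3 lay above LPS replicates 1 and 2, so the groups overlapped. The log2 fold change of 1.80 (SE 0.82) did not pass the edgeR test (adjusted p = 0.194). With the replicate number as a block it was 1.47 (SE 0.37, adjusted p = 0.0443), and without both libraries numbered 3 it was 0.94 (SE 0.27, adjusted p = 0.0325). In these 2 fits 15.4% and 22.6% of all genes were called higher. Without LPS replicate 3 alone it fell to 0.45 (adjusted p = 0.506). Matched by number the LPS to control ratio was 2.21, 1.66 and 5.0.

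Among the long members, Slfn8 differed most clearly from its controls. Slfn8 (ENSMUSG00000035208, chr11:83002158-83020810, minus strand, 910 codons) was at 2.29, 3.01 and 7.89 CPM in controls and at 54.3, 63.5 and 156 CPM under LPS. The lowest LPS culture was several times the highest control. The means were 4.4 ± 3.05 and 91.2 ± 56.1 CPM (SD, n = 3 each), the log2 fold change was 4.37 (SE 0.68, edgeR adjusted p = 0.0134), and the fold was 20.7. The ratio matched by replicate number was 23.7, 21.1 and 19.7, a narrow range although both replicates numbered 3 were high. It had the smallest adjusted p among the members.

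Slfn9 (ENSMUSG00000069793, chr11:82978390-82991830, minus strand, 910 codons) is the nearest relative of Slfn8. Their coding sequences of 2730 bases were 92.7% identical, and the 250 bases before their starts were 85.1% identical over 242 aligned bases. Slfn9 was at 12.9, 16.1 and 27.5 CPM in controls and 41.7, 37.2 and 57.6 CPM under LPS. The groups did not overlap. The log2 fold change was 1.27 (SE 0.32, edgeR adjusted p = 0.0495), or 2.41-fold, just inside the threshold. Testing all genes with no low-count filter moved the adjusted p to 0.0524, and over all alternatives it ran from 0.000179 to 0.175. The difference between the fold changes of Slfn8 and Slfn9 was not itself tested. Of the 50-base words in their transcripts, 14.6% of those of Slfn8 and 11.9% of those of Slfn9 also occur in another gene, chiefly in each other and in Slfn10-ps. How reads with several alignments were counted was not given in the sources used here, so the split of counts between these copies is uncertain. The same holds for Slfn3 (16% of words shared) and Slfn4 (11.3%).

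Slfn5 (ENSMUSG00000054404, chr11:82951349-82964840, plus strand, 884 codons), a nuclear member whose human counterpart limits interferon-driven transcription, had the steadiest controls of the family. They were at 30.1, 34.3 and 28.2 CPM, and the LPS cultures at 81.9, 98.0 and 300.4 CPM. Control replicate 3, high for the other detected members, was the lowest control here, while LPS replicate 3 was again the highest. The means were 30.9 ± 3.09 and 160 ± 122 CPM (SD, n = 3 each). The fitted difference was 2.37 on the log2 scale (SE 0.53, edgeR adjusted p = 0.0363), or 5.19-fold. Matched by number the ratio was 2.72, 2.86 and 10.6. Without both libraries numbered 3 the log2 fold change was 1.51 (SE 0.11, adjusted p = 0.000101). An antisense gene, Slfn5os, overlaps 559 exonic bases of Slfn5 but held 2 counts over all libraries.

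**Figure D2:**
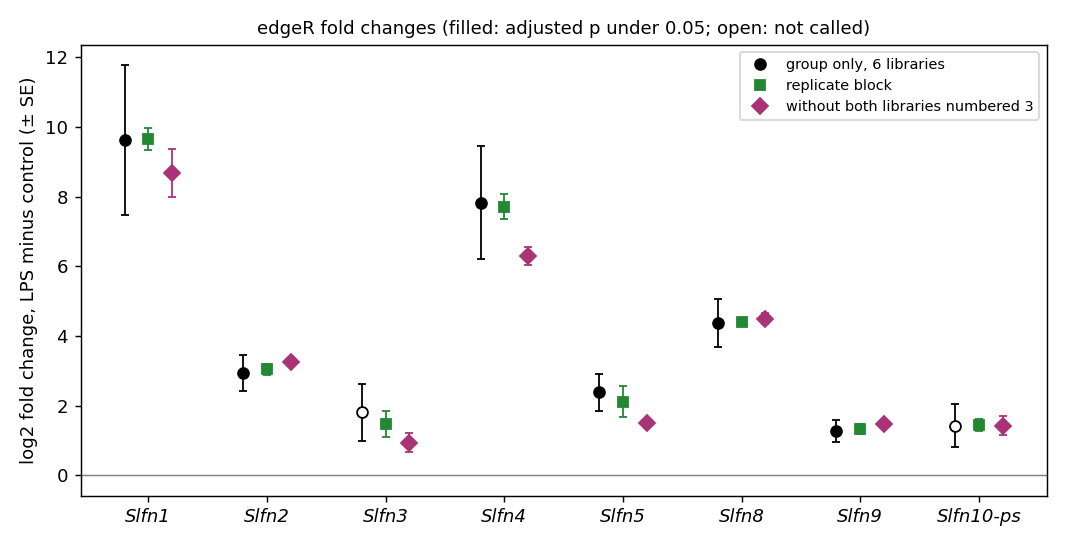
Log2 fold change of LPS over control with its SE for the 7 members and the pseudogene Slfn10-ps, from edgeR fits with group as the single term, with the replicate number as a block, and without both libraries numbered 3. Filled symbols passed an adjusted p of 0.05, the direction is the same in all 3 fits, and Slfn3 and Slfn10-ps are open in the first fit alone. The Slfn1 value depends on the prior count.

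Of the 3 further genes of the family, 1 was high enough to test. The transcribed pseudogene Slfn10-ps (chr11:83028130-83040042, minus strand) was at 2.71, 4.78 and 9.84 CPM in controls and 9.34, 10.4 and 26.7 CPM under LPS. The groups overlapped, since control replicate 3 lay above LPS replicate 1, and the log2 fold change of 1.42 (SE 0.61) did not pass the edgeR test (adjusted p = 0.176). With the replicate block, where 15.4% of all genes were called higher, it was 1.44 (SE 0.16, adjusted p = 0.00674). Without LPS replicate 3 it was 0.77 (adjusted p = 0.349) and without control replicate 3 it was 2.06 (adjusted p = 0.0882). Slfn14, a ribosome-associated endoribonuclease, had 1 count in all 6 libraries together, as did Slfnl1, a Schlafen-like gene outside the cluster. Neither passed the low-count filter, and neither was called when all genes were tested without it (edgeR adjusted p = 0.563 and 0.543).

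Because the genes differ in length, levels between members were compared per kilobase of exon. In controls the order was Slfn2 (22.4 ± 14.2 CPM per kb), Slfn5 (4.88 ± 0.49), Slfn9 (3.16 ± 1.28), Slfn8 (1.07 ± 0.75), Slfn3 (0.579 ± 0.284), Slfn4 (0.0708 ± 0.0564) and Slfn1 (0.00739 ± 0.0128; SD, n = 3 each). Slfn5 and Slfn9 overlapped, as did Slfn8 and Slfn3, while the other neighbours were separate. Under LPS Slfn2 stayed first at 170 ± 64 CPM per kb, above every library of the next gene. The next 5 followed as Slfn5 (25.3 ± 19.3), Slfn8 (22.3 ± 13.7), Slfn4 (16.5 ± 23.3), Slfn1 (8.51 ± 12.5) and Slfn9 (7.63 ± 1.80), each overlapping its neighbour. The places of Slfn5 above Slfn8, and of Slfn4 and Slfn1 above Slfn9, rested on LPS replicate 3. In LPS replicates 1 and 2 Slfn5 was at 12.95 and 15.49 CPM per kb against 13.28 and 15.53 for Slfn8. In the same libraries Slfn4 was at 3.13 and 2.99 CPM per kb and Slfn1 at 1.17 and 1.41, below Slfn9 at 6.99 and 6.23. Slfn3 came last at 2.02 ± 2.13 CPM per kb, below all libraries of Slfn9.

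The makeup of the family signal was described as each member's share of the summed counts per kilobase, with no test. Per kilobase Slfn2 held most of it in both groups, 66.8% ± 8.17 in controls and 71% ± 9.99 under LPS (SD, n = 3 each), and the groups overlapped. In counts with no length correction Slfn2 held 37.4% and 46.4%, and Slfn5 held more than Slfn2 in control replicates 1 and 2 (44.7 against 30.8% and 41.9 against 32.4%). The related long genes stood in opposite order. Slfn9 held 10.1% ± 0.91 in controls and 3.34% ± 0.94 under LPS, whereas Slfn8 held 3.15% ± 0.57 and 8.62% ± 0.63, and in neither case did the groups overlap. Slfn4 had 0.157, 0.177 and 0.267% in controls and 1.90, 1.64 and 10.6% under LPS. Slfn1 had at most 0.0437% in a control and 0.707, 0.769 and 5.6% under LPS. LPS replicate 3 was thus set apart from the other LPS libraries by Slfn1 and Slfn4, and its Slfn2 share of 59.5% was the lowest of all 6 libraries.

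**Figure D3:**
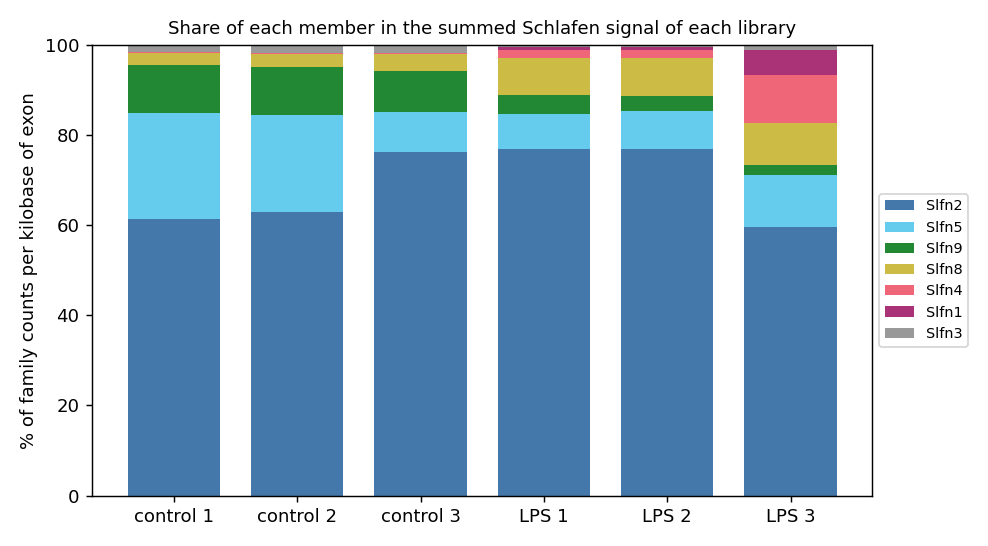
Share of each member in the summed Schlafen counts per kilobase of exon, as stacked bars that add to 100% in each of the 6 libraries. Slfn2 takes between 59.5 and 76.8% of every bar, Slfn8 is wider and Slfn9 narrower in the LPS bars, and Slfn4 and Slfn1 together are widest in LPS replicate 3.

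The spread within groups had a pattern of its own. Relative to the mean of replicates 1 and 2, control replicate 3 was 2.72 times as high in Slfn2, 2.13 in Slfn3, 3.53 in Slfn4, 2.98 in Slfn8 and 1.89 in Slfn9, but 0.877 in Slfn5. LPS replicate 3 was 17.8 times as high in Slfn1, 14.2 in Slfn4, 5.65 in Slfn3, 3.34 in Slfn5, 2.64 in Slfn8, 1.83 in Slfn2 and 1.46 in Slfn9. The same ratio for the summed macrophage markers was 2.67 in controls and 4.33 under LPS, and for glial markers 0.773 and 0.953. The median ratio over all genes was 0.997 and 1.00. Between the groups, 1 of 12 macrophage markers (Adgre1, which encodes F4/80) was called higher by edgeR and none lower, and with the replicate block 3 were higher and 4 lower. In replicates 1 and 2 the LPS to control ratio was 10.1 and 8.81 for Slfn2, 2.21 and 1.66 for Slfn3, 2.72 and 2.86 for Slfn5, 23.7 and 21.1 for Slfn8, and 3.23 and 2.31 for Slfn9. In the same replicates the macrophage sums were 4096 against 4218 CPM and 5314 against 5477 CPM, but these sums were mostly Lyz2 and their parts differed in direction. In replicate 1 Adgre1 was at 159 CPM without and 952 CPM with LPS, and Mrc1 at 197 and 9.29 CPM. Without both libraries numbered 3, all 7 members were called higher, as were 22.6% of all genes tested.

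**Figure D4:**
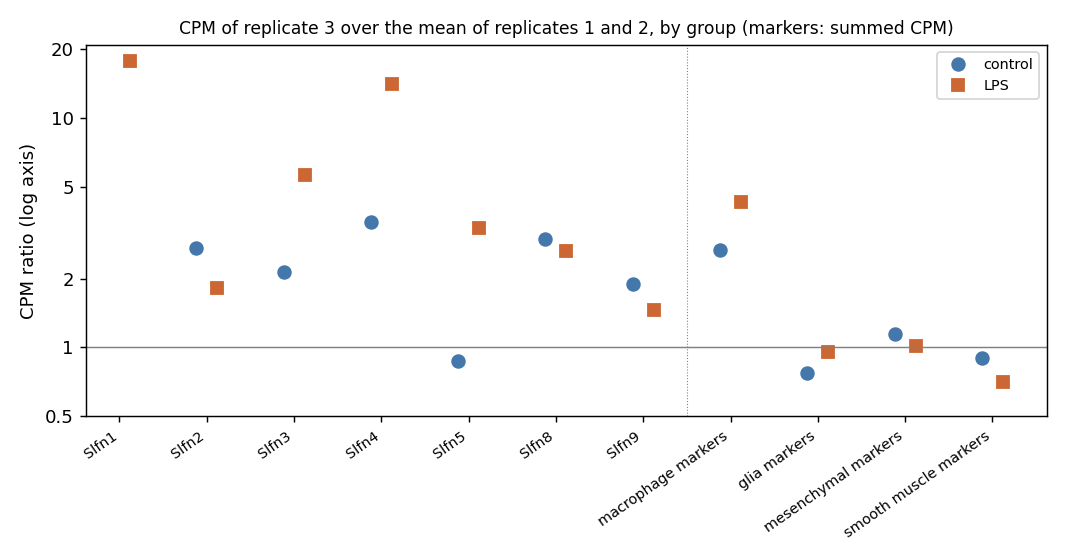
CPM of replicate 3 divided by the mean of replicates 1 and 2 of the same group, on a log axis, for the 7 members and for the summed markers of 4 cell types. Circles are control and squares LPS, with no point for Slfn1 in controls, which had 1 count. Most members and the macrophage sum lie above 1 in both groups, Slfn5 in controls is at 0.877, and the glial sum is at 0.773 and 0.953.

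The calls depended on which cultures were kept. Without control replicate 1 no member passed the edgeR test, and 3.03% of all genes were called higher. Adjusted p ran from 0.0588 for Slfn8 to 0.395 for Slfn3. At an unadjusted p under 0.05, 6 members were higher, beside 2021 of all 15531 genes. Without control replicate 2 the count called was again 0, with adjusted p from 0.0778 for Slfn8 upwards and 2.44% of all genes called higher. At an unadjusted p under 0.05, 6 members were again higher, beside 1900 of all 15564 genes. In these 2 fits the log2 fold changes were 4.06 and 4.16 for Slfn8, 2.65 and 2.74 for Slfn2, 2.36 and 2.46 for Slfn5, and 1.07 and 1.18 for Slfn9. Without LPS replicate 2 Slfn8 alone passed, beside 3.36% of all genes. Without control replicate 3 the 3 members Slfn2, Slfn8 and Slfn9 passed (7.52% of all genes), and without LPS replicate 1 the 4 members Slfn1, Slfn4, Slfn5 and Slfn8 (3.98%). Without LPS replicate 3, 5 members passed beside 12.6% of all genes (Slfn9 had an adjusted p of 0.0786), at log2 fold changes of 6.91 for Slfn1, 5.39 for Slfn4, 3.74 for Slfn8, 2.57 for Slfn2 and 1.54 for Slfn5. Without control replicate 3 the log2 fold changes of Slfn1, Slfn4, Slfn8 and Slfn2 were 11.36, 8.71, 5.12 and 3.60. The fitted direction was higher under LPS for all 7 members in each of these fits.

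The genes that flank the cluster did not all share this direction. Of the 10 nearest protein-coding genes on each side, 14 were tested, 5 were called higher and 1 lower by edgeR, beside 9.09% and 6.71% of all genes, and their median log2 fold change was 0.19. The gene next to Slfn5, Unc45b, was too low to test. On the far side of Unc45b, Nle1 was at 0.28 (SE 0.17, adjusted p = 0.305). Those called higher were Rffl at 1.58, Tmem132e at 3.0, Ap2b1 at 0.26, Heatr9 at 7.62 and the chemokine gene Ccl5 at 12.74, and Mmp28 was lower at -0.69. Heatr9 and Ccl5 entered the test through their LPS libraries alone (Heatr9 at most 0.0424 CPM and Ccl5 at most 0.248 CPM in a control), so the size of their fitted folds depends on the prior count. With at least 10 counts asked of every library, 12 flanking genes were tested and 3 were called higher, beside 8.71% of all genes. With the replicate block 6 were higher and 2 lower, Rasl10b being the second, beside 2343 and 2273 of all 15226 genes. Ccl5 lies 239052 bases beyond the end of the cluster.

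**Figure D5:**
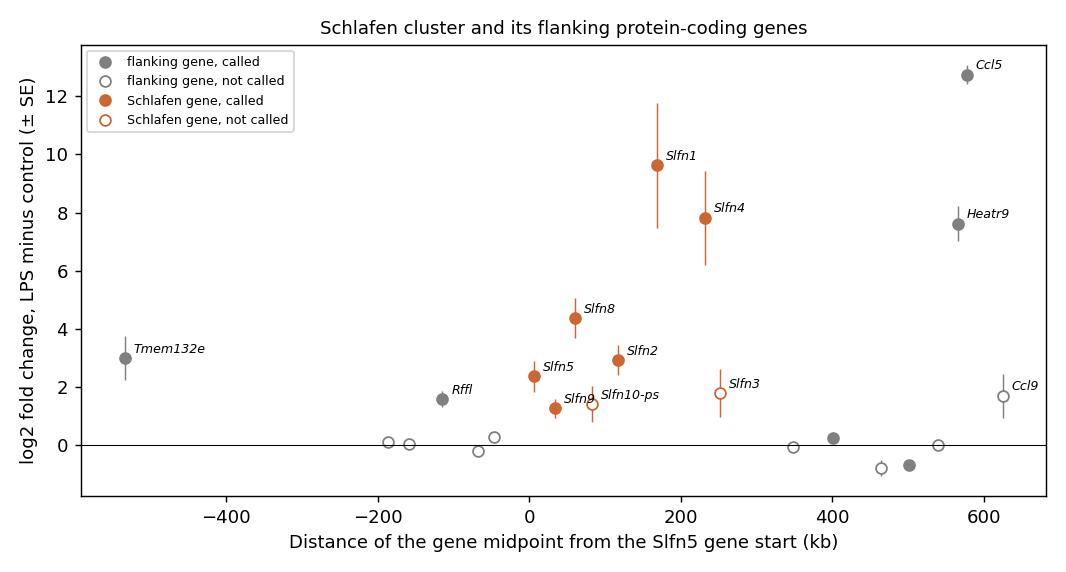
Log2 fold change of LPS over control with its SE for each tested gene of the Schlafen cluster (orange) and of its flanks (grey), against the distance of the gene's midpoint from the start of Slfn5 in kb. Filled symbols passed an adjusted p of 0.05. All 8 tested Schlafen genes lie above 0, and the nearest tested flanking gene on the Slfn5 side, Nle1, lies at 0.28.

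Type I interferon signalling, known to induce Schlafen genes, was measured through 16 genes. Of the 14 tested, 10 were called higher, beside 9.09% of all genes, and none lower by edgeR (12 higher and none lower at an unadjusted p under 0.05; none lower by the exact test, DESeq2 or limma-voom), with a median log2 fold change of 2.03. Irf7, the transcription factor that amplifies interferon production, was at 4.55 ± 0.55 CPM in controls and 638 ± 274 CPM under LPS (log2 fold change 7.13, SE 0.39, adjusted p = 0.000417). Stat2 and Irf9, subunits of the factor that binds the ISRE, were at 2.98 and 2.07. The receptor gene Ifnar1 was not called (0.54, SE 0.20, adjusted p = 0.132), but with the replicate block it was higher (0.55, SE 0.06, adjusted p = 0.00599), 1 of 12 genes of the list called higher in that fit, beside 15.4% of all genes. Ifnb1 itself had no counts in 5 libraries and 0.89 CPM in LPS replicate 3, and Ifna4 had at most 0.0494 CPM in a library, so neither passed the filter.

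Other genes that act on viral or transfer RNA, the substrates linked to Schlafen proteins, were taken as a list of 19. All were tested, 14 were called higher, beside 9.09% of all genes, and none lower by edgeR, and the median log2 fold change was 3.63. Without LPS replicate 3 the median was 2.66 and 15 were called higher, beside 12.6% of all genes. Without control replicate 2 the count higher was 10, beside 2.44%. The group held Oas3 at 7.30, Ifit1 at 6.96 and Oasl2 at 5.14, alongside Zc3hav1 at 1.20. Ang, the RNase from which Slfn2 shields transfer RNA, was at -0.48 (SE 0.25, adjusted p = 0.243). At an unadjusted p under 0.05, 15 were higher and none lower, and DESeq2, the exact test and limma-voom called none lower. With the replicate block 15 of the list were called higher and 2 lower, beside 2343 and 2273 of all 15226 genes. Among those lower was the RNase inhibitor gene Rnh1 (-0.24, edgeR adjusted p = 0.0474).

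Growth arrest gave the family its name, and 23 genes of G1 entry and proliferation were read beside it. None was called higher and 2 were called lower by edgeR, a share near the 6.71% of all genes called lower, and the median log2 fold change was -0.30. Ccnd1, cyclin D1, was at 461 ± 95.2 CPM in controls and 198 ± 27.8 CPM under LPS (log2 fold change -1.22, SE 0.19, adjusted p = 0.0137), and Rpa1, a subunit of replication protein A, at 97.2 ± 9.34 and 62.4 ± 3.36 CPM (-0.64, SE 0.09, adjusted p = 0.0117). The most abundant gene of the list in controls, Ccnd2, was not called by edgeR (-0.55, SE 0.40, adjusted p = 0.395). With the replicate block Ccnd2 was lower (-0.53, SE 0.06, adjusted p = 0.00742). Under LPS Cdkn1a was the most abundant, at 515 CPM against 368 CPM for Ccnd2, and was not called (0.49, SE 0.15, adjusted p = 0.0801). At an unadjusted p under 0.05, 1 gene was higher and 9 lower, as were 2453 and 2439 of all 15226 genes. DESeq2 called 1 higher, the CDK inhibitor gene Cdkn1a. With the replicate block 6 were lower and 1, again Cdkn1a, was higher, beside 2273 and 2343 of all 15226 genes.

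The genes whose profile over the 6 libraries lay nearest to each member were listed by the distance between centred log2 CPM profiles (prior count 2), as a description. For Slfn1 and Slfn4 the nearest gene was the other of the pair, at a distance of 1.03, followed for both by the interferon-induced GTPase gene Mx1. The nearest to Slfn2 were Nod2 (0.13), a sensor of bacterial peptidoglycan, Nlrc5 (0.16), an activator of MHC class I genes, and Cybb (0.467), the phagocyte oxidase subunit. Slfn8 was nearest to Dhx58 (0.392), which encodes an RNA helicase of the RIG-I family, to Pilra (0.495) and to Oas1a (0.53). Slfn5 was nearest to Fgl2, Tnfsf13b and Gm10052 (0.395 to 0.547), Slfn9 to Sdc1, Prss46 and Spsb1 (0.403 to 0.427), and Slfn3 to March1, Cfp and Lrrc25 (0.328 to 0.435). Profiles of genes from the same 6 libraries share their depth and their replicate 3.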

How the data were processed

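Per the labels and the study's methods, the authors sequenced poly(A) RNA from 6 cultures (TruSeq stranded kit) and deposited raw counts per gene; their processing notes name cutadapt 1.15, Bowtie2 2.3.3.1, STAR 2.5.2b, SAMtools 1.5 and featureCounts 1.5.3 and the build GRCm38. The strand setting and the handling of multiply aligned reads are not given in the sources used here. Counts were compared in R 4.3.3 with the edgeR 4.0.16 quasi-likelihood F-test, two-sided, with group as the single term, trimmed mean of M-values (TMM) factors, filterByExpr (minimum count 10, total 15; 15226 genes) and Benjamini-Hochberg adjustment over all of them at 0.05. Scripts were tested on simulated data. Of the identifiers, 98.7% matched GENCODE M21. Named genes were the family, examples from each list (largest change among called genes, most abundant genes), 3 nearest profiles per member and flanking genes by position. The members and lists were chosen with earlier results of these data known. Alternatives were RLE, upper-quartile and no factors, no filter, at least 10 counts in every library, DESeq2 1.42.0, the exact test, limma-voom 3.58.1, a replicate block, leaving out each library and, chosen after seeing the data, both libraries numbered 3. Deviations of same-numbered libraries from their group means correlated at 0.513, 0.334 and 0.613. Libraries of unlike number were not compared, and a shared deviation of the libraries numbered 3 would by itself raise all 3 values. These values therefore cannot show that numbers 1 and 2 are pairs. Matching by number, in the ratios and in the replicate block, is an assumption, since the labels do not say what a number marks. Values of some single genes are not reported here.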

Additional observations from a re-analysis of the deposited data

How the results depend on the processing

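All 7 members kept a positive log2 fold change under every alternative that tested them. DESeq2 gave no adjusted p for Slfn1 and Slfn4, and called 4 of the other 5. Leaving out each library in turn left between 0 and 5 members called higher. In the same fits the interferon signalling list kept its counts within 1.5 times, the proliferation list had 0 to 2 higher and 0 to 3 lower, the flanking genes 2 to 5 higher and 0 to 1 lower, and all genes 379 to 1964 higher and 112 to 1426 lower; fewer libraries entered each. The replicate block called 7 members, Slfn3 being the added one, and changed no other call among them; it called 1 other family gene (Slfn10-ps), 2 antiviral RNA genes lower, 1 proliferation gene higher and 6 lower, 2 flanking genes lower, and 2343 genes higher and 2273 lower over all. Without both libraries numbered 3, 1 other family gene was higher, 1 interferon signalling gene (Irf8) and 2 antiviral RNA genes were lower, 2 proliferation genes were higher and 7 lower, 2 flanking genes were lower, and 3498 genes were higher and 3159 lower over all. Upper-quartile factors gave 4 proliferation genes lower, 3 flanking genes higher and 1589 genes lower; library size alone gave 5, 3 and 2054, and 1 antiviral RNA gene lower. These scalings moved the median of all genes from -0.02 to -0.12 and -0.18. DESeq2 gave 1 proliferation gene higher and 4 lower and 2079 genes higher and 1673 lower, the exact test 4 proliferation genes lower, and the filter of 10 counts in every library 3 flanking genes higher. The cause of these differences was not tested. Without length correction the shares in controls and under LPS were 37.4% and 46.4% for Slfn2, 36.0% and 22.7% for Slfn5, 19.9% and 7.86% for Slfn9 and 4.36% and 13.7% for Slfn8, and 2 members changed place in the LPS order. Floors and counting intervals cover counting error only, since PCR copies cannot be recognised in these counts.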
